A study of Mus musculus with 8 samples.

Results

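S100 proteins are small calcium-binding proteins, each with a pair of EF-hand motifs, which mostly act as dimers that change shape when calcium binds. Most of their genes lie together in the epidermal differentiation complex, the chromosomal region that also carries the genes of the cornified envelope, the cross-linked protein shell of dead surface keratinocytes. In skin some members are keratinocyte or hair proteins, while others are better known from neutrophils, glia or muscle.

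The 10 genes described are S100a1, S100a3, S100a4, S100a6, S100a8, S100a9, S100a10, S100a11, S100a14 and S100b, in dorsal skin of wild-type mouse embryos. A member was taken as measured where at least 1 probeset of the array was annotated to its symbol alone. This held for 9 of the 10 genes, through 13 of the 34945 tested probesets that carry a single gene symbol. S100a1 and S100b each had 2 such probesets, S100a10 had 3 and the other 6 genes had 1. The only probeset for S100a11 is shared with 2 further annotated symbols, so it entered no test.

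Total RNA of skin was hybridised to 8 Affymetrix mouse expression arrays. The ages were embryonic days 14.5 (E14.5, 2 arrays), 16.5 (E16.5, 3 arrays) and 18.5 (E18.5, 3 arrays). All animals were labelled wild-type and no treatment was given in the labels, so the comparisons are between ages. The labels do not say whether the arrays of a stage came from separate embryos or litters, so the p-values measure only the spread between these samples. Replicates are numbered in accession order and have no further meaning.

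The values are signals on a linear scale, and changes are differences of log2(signal + 16), which understate the change of dim probesets. One probeset a gene was tested, that with the highest mean over the arrays, with limma across 18193 genes, and a rise or fall was called where the p adjusted by Benjamini-Hochberg was under 0.05. The level taken as background on an array was the 95th percentile of 80 olfactory and vomeronasal receptor probesets. It ranged over the arrays from 43.9 to 45.7 at E14.5, from 33.6 to 53.2 at E16.5, and from 62.2 to 92.2 at E18.5. A fold is given as a lower bound if the dimmer stage had an array no brighter than that level.

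The E14.5 arrays stood apart from the rest. The ratio of the beta-actin control probesets at the 3′ end to those at the 5′ end was 6.49 to 6.91 on the E14.5 arrays, 1.11 to 1.14 on those of E16.5, and 1.35 to 1.37 on those of E18.5. The median signal of all probesets was 60.8 to 63.4 at E14.5 and 120.1 to 152.6 on the later arrays. The cre control, a bacteriophage transcript added at hybridisation, gave 52237 to 52566 at E14.5, then 14152 to 15316 and then 20039 to 20942. The E16.5 and E18.5 arrays thus also separated on the beta-actin ratio, the cre signal and the background level, by less than either did from E14.5 on the ratio and the cre signal. Each stage was its own set of arrays, so stage and array preparation cannot be told apart in any of the comparisons. Keratinocyte and fibroblast genes were present at every stage, with all 8 basal keratinocyte markers and all 12 dermal fibroblast markers above background on each array.

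The upstream sequences of 5 neighbouring members are shown as a description, and no comparison of stages used them. S100a3, S100a4 and S100a6 were chosen because they rose between E16.5 and E18.5, and S100a8 and S100a9 because they encode the calprotectin pair. Whether the sequences bear on the changes was not tested. Each sequence is the 250 bases before a RefSeq start on chromosome 3 (GRCm38.p6), written 5′ to 3′ on the gene's strand. Matches to the motifs searched are in capitals. For S100a3, which has 4 starts in RefSeq, the one with a TATAAA match is shown.
S100a3, chr3:90588313-90588562, plus strand: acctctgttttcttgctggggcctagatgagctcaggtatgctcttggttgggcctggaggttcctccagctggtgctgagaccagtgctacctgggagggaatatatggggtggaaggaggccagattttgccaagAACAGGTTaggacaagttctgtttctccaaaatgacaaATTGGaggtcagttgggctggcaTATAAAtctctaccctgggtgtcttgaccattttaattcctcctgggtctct
S100a4, chr3:90603520-90603769, plus strand: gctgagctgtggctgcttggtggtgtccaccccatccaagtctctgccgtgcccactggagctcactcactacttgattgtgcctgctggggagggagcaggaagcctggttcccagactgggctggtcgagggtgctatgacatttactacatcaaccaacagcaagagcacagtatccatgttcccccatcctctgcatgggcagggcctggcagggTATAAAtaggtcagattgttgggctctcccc
S100a6, chr3:90612644-90612893, plus strand: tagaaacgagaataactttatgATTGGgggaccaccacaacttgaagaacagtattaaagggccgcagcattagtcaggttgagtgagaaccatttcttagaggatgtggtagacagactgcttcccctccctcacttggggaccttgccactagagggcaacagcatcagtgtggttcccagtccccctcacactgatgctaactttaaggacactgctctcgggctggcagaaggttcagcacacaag
S100a8, chr3:90668821-90669070, plus strand: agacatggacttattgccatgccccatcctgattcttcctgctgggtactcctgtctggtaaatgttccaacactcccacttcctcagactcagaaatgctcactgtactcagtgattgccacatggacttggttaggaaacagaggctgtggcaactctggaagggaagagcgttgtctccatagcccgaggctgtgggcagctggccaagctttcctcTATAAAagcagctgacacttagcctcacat
S100a9, chr3:90695722-90695971, minus strand: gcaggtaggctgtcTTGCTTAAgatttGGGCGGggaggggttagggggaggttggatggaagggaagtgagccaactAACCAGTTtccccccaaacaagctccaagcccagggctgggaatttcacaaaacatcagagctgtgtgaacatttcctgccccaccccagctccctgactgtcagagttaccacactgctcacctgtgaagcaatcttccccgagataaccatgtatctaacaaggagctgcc

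The 6 motifs were searched on both strands of these windows and of all 32851 RefSeq promoters of the same length. A match describes letters only. Counted from the start site, TATAAA, the TATA box, begins at -31 in S100a4 and at -30 in S100a8. It begins at -52 at the S100a3 start shown. TATAAA was held by 12.4% of all promoters, a share that does not apply to that S100a3 start, which was picked for the match. Of the other S100a3 windows, that beginning at 90599964 held only GGGCGG. Those beginning at 90584409 and 90586702 held no match. TTGCNNAA, a C/EBP motif held by 9.56% of promoters, was matched in S100a9. AACCNGTT, a Grainyhead-like motif held by 1.79%, was matched in S100a9 and, on the other strand, in S100a3. GGGCGG, the GC box held by 32.7%, was matched in S100a9, and CCAAT, held by 33.8%, on the other strand of S100a3 and S100a6. TGANTCA, the AP-1 motif held by 6.75%, was matched at 2 places in S100a11 and in none of the sequences shown. The window of S100a1 held no match to the motifs searched, that of S100b held CCAAT on both strands, and S100a10 and S100a14 had no entry.

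Between E16.5 and E18.5, 3 of the 9 measured members rose and none fell. They were S100a3, S100a4 and S100a6, and the other 6 did not pass the test. Without E18.5 replicate 3, S100a1 and S100a10 also passed, which makes 5. Of all 18193 genes, 12.9% were called in this comparison, 7.28% as higher and 5.58% as lower at E18.5. Higher genes were 56.6% of the calls, and 36.2% when each array was centred on its median, where all genes had a median change of 0.01. The median log2 change of the members was 0.55, beside 0.12 over all genes.

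S100a3 encodes a protein of the hair cuticle that is known as a substrate of peptidylarginine deiminases. Its signal was 27.7 and 45.2 on the E14.5 arrays, 20.4, 37.5 and 28.3 on the E16.5 arrays, and 1409, 388 and 145 on the E18.5 arrays. None of the 5 earlier arrays lay above background and all 3 E18.5 arrays did, so the groups do not overlap. The log2 change from E16.5 to E18.5 was 3.36 ± 0.63 (SE), a rise of at least 7.74-fold (limma, adjusted p = 0.0092). The E18.5 mean was 647 ± 671 (SD, n = 3), with a 9.75-fold spread between its highest and lowest array. Without replicate 1 of E18.5 the log2 change was 2.53 (adjusted p = 0.011), and without replicate 3 it was 4.10. Over all single arrays left out, the adjusted p ran from 0.0021 to 0.043.

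S100a4, an S100 protein of motile cells such as fibroblasts and macrophages that binds non-muscle myosin, had signals of 429.5 and 441 at E14.5. They were 505, 698 and 692 at E16.5 and 1962, 1220.3 and 1223 at E18.5. Every E18.5 array lay above every earlier array. The log2 change from E16.5 was 1.17 ± 0.21, or 2.26-fold (limma, adjusted p = 0.0067).

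S100a6, or calcyclin, is widespread in epithelia and fibroblasts and binds annexins and the calcyclin-binding protein Cacybp. Its signals were 8949 and 6192 at E14.5, 2465, 2539 and 2513 at E16.5, and 7034, 4830.5 and 4311 at E18.5. The E16.5 arrays were the lowest, with no overlap with either other stage. From E16.5 to E18.5 the log2 change was 1.07 ± 0.19, or 2.10-fold (limma, adjusted p = 0.0066). These 3 rises passed the test under every alternative in which the gene was tested, 19 for S100a3 and 20 each for S100a4 and S100a6.

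**Figure D1:**
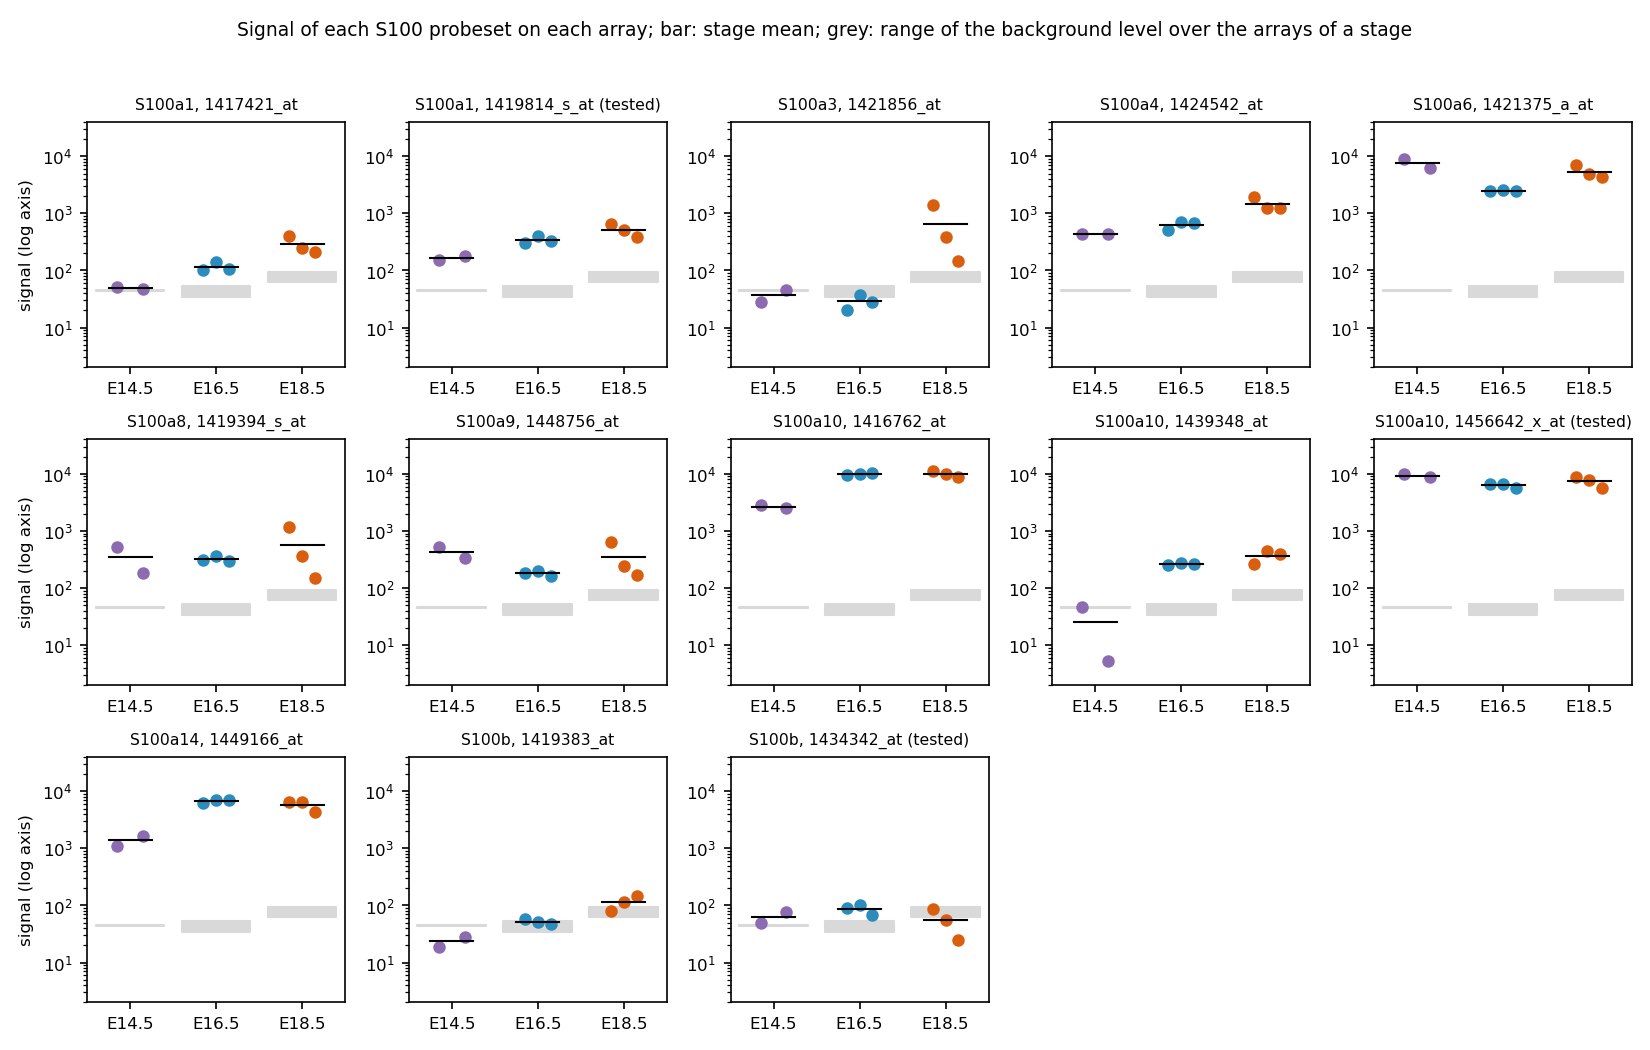
Signals of the 13 S100 probesets on a log axis, 1 point an array, by stage (2 arrays at E14.5, 3 each at E16.5 and E18.5), with stage means as bars and the range of the background level in grey. S100a3 lies at or under background at E14.5 and E16.5 and at 145 to 1409 at E18.5, S100a6 is lowest at E16.5, and the 3 S100a10 probesets differ in direction between E14.5 and E16.5.

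Markers of several cell types moved in the same interval as these 3 members, those of the growing hair among them. The counts below stand beside the 7.28% of all genes that rose and the 5.58% that fell. The hair shaft list (hair keratins, Padi1, Padi3, Hoxc13 and Lef1) had 7 of 14 measured genes that rose and none that fell from E16.5 to E18.5, and the inner root sheath list had 7 of 9 and none. The summed hair shaft signal was 2058 to 2399.6 at E16.5 with 5 to 7 genes above background, and 8259, 4491 and 3116 on E18.5 replicates 1, 2 and 3, with 13, 13 and 7 above. The inner root sheath sum was 1572 to 1924 at E16.5 with 2 to 5 genes above background, and 37452, 17740 and 8270.5 at E18.5, with 9, 9 and 8 above. S100a3 and both sums were highest on replicate 1 and lowest on replicate 3 of E18.5. Replicate 1 was, however, the highest for all 9 tested member probesets, beside 43.0% of all genes. Replicate 3 was the lowest for 8 of 9, beside 34.3% of all genes. At E14.5 the hair shaft sum was 5109 to 6188, of which Lef1 gave 4598 and 5689, and S100a3 was not above background there. Adipocyte markers rose in 9 of 10 genes and melanocyte markers in 7 of 9, with none falling in either list. The adipocyte sum was 9947 to 13602 on the E16.5 arrays with 6 or 7 genes above background, and 44742 to 58655 on the E18.5 arrays with 9 or 10 above. The melanocyte sum was 3569 to 4986 on the E16.5 arrays with 8 or 9 genes above background, and 8214 to 13471 on the E18.5 arrays with all 9 above. Among markers of cells known for S100a4, 4 of 12 dermal fibroblast genes rose and none fell, their sum going from 158011 to 167665 up to 175178 to 215818. Of 15 macrophage and dendritic cell genes, 3 rose and 1 fell, the sum going from 11392 to 12269 up to 12649 to 16582, with 13 or 14 above background at both stages and Cd207 at or under it on every array. The part of these lists in the member changes was not tested, and in whole skin more cells of a type and more RNA per cell cannot be told apart.

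**Figure D2:**
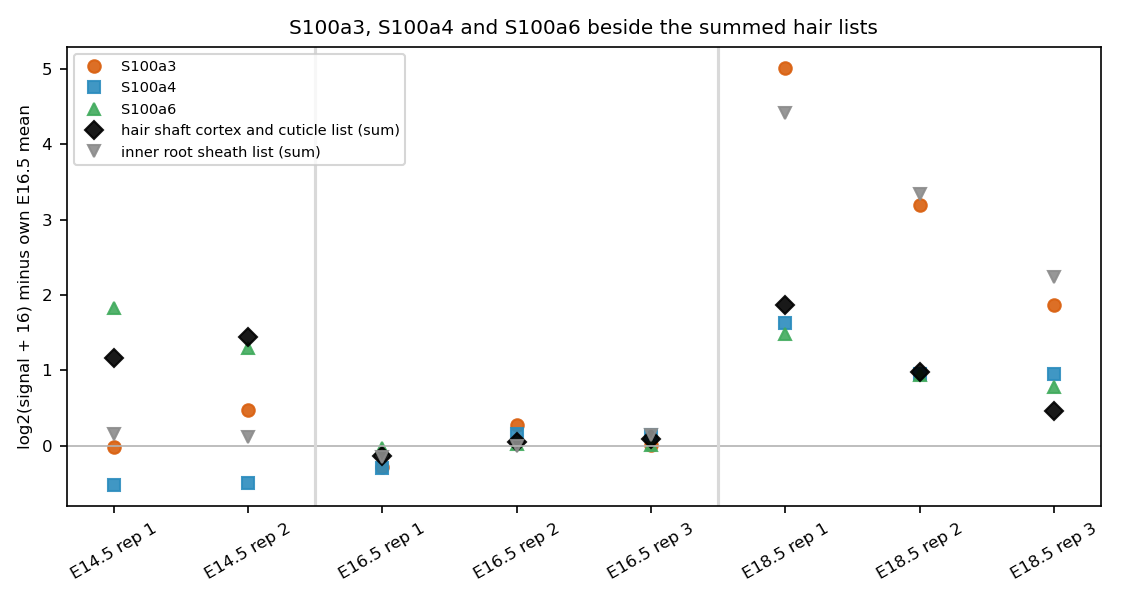
S100a3, S100a4 and S100a6 and the summed hair shaft and inner root sheath lists on each array, as log2(signal + 16) minus their own mean over the E16.5 arrays. S100a3 reaches 5.01, 3.19 and 1.86 on E18.5 replicates 1, 2 and 3, and the inner root sheath sum 4.42, 3.34 and 2.24. At E16.5 most of the hair shaft sum came from Lef1, and most of the inner root sheath sum from Gata3.

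S100a8 and S100a9 form calprotectin, which neutrophils store in quantity and keratinocytes make under stress. S100a8 had signals of 529.7 and 179.8 at E14.5, 303, 358 and 297 at E16.5, and 1177, 359 and 152 at E18.5. The stages overlap, and the E18.5 arrays span 7.75-fold. The log2 change from E16.5 to E18.5 was 0.34 ± 0.61, with a 95% interval of -1.02 to 1.69 (limma, adjusted p = 0.75), and it turned to -0.41 without E18.5 replicate 1. S100a9 had signals of 532 and 337 at E14.5, 182, 198 and 162 at E16.5, and 641, 245 and 169 at E18.5. Its E18.5 arrays overlap those of E16.5, with a log2 change of 0.69 ± 0.40 and an interval of -0.20 to 1.59 (limma, adjusted p = 0.28).

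Neutrophil genes were dim throughout. Of 13 measured markers, 1 to 3 lay above background on the E14.5 arrays, 7 or 8 on those of E16.5 and 3 to 5 on those of E18.5, and the summed signals were 241 to 373, 639 to 715 and 813 to 1204 in that order of stages. Elane, Cxcr2 and Chil3 were at or under background on all 8 arrays. At E18.5 the sum was 1204, 994 and 813 on replicates 1, 2 and 3, the order that S100a8 and S100a9 also had. Replicate 1 of E18.5 was, however, the highest for all 9 tested member probesets. At E16.5 the sum was 715, 702 and 639, highest on replicate 1, while S100a8 and S100a9 were highest on replicate 2. At E14.5 both genes and the sum were higher on replicate 1 than on replicate 2. The part of neutrophils in these signals was not tested.

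S100a1 is best known from striated muscle, where it binds the ryanodine receptor and the calcium pump. Its tested probeset (1419814_s_at) gave 151 and 181 at E14.5, 299, 406 and 327 at E16.5, and 644, 516 and 391 at E18.5. The E14.5 arrays lay lowest, and the lowest E18.5 array fell within the range of E16.5. From E16.5 to E18.5 the log2 change was 0.55 ± 0.22, with an interval of 0.06 to 1.03, and did not pass the test (limma, adjusted p = 0.13). The second probeset (1417421_at) gave 102, 139.6 and 108 at E16.5 and 401, 247 and 209.8 at E18.5, with no overlap. In the fit of every probeset, in which 10.7% of 34945 were called, 6.27% as higher and 4.44% as lower, it rose by 1.15 ± 0.28 (limma, adjusted p = 0.028). All 13 skeletal muscle markers were above background on every array, and their sum was 18729 to 33874 at E14.5, then 119324 to 130861, and then 180050, 142638 and 210290 on the E18.5 replicates in order. From E16.5 to E18.5, 1 of the 13 muscle genes rose and 2 fell, beside 7.28% and 5.58% of all genes. S100a1 was highest on replicate 1 of E18.5, as were all 9 tested member probesets, and the muscle sum on replicate 3. The part of muscle in the S100a1 signals was not tested.

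S100a10, also called p11, forms a tetramer with annexin A2 and, unlike its relatives, no longer binds calcium. Its tested probeset (1456642_x_at) gave 9891 and 8795 at E14.5, 6605, 6568 and 5725 at E16.5, and 8772, 7861 and 5728 at E18.5. From E16.5 to E18.5 all 3 probesets overlapped between stages and none passed the test, with log2 changes of 0.22 ± 0.15, 0.00 ± 0.11 (1416762_at) and 0.44 ± 0.37 (1439348_at). Anxa2, the annexin that S100a10 binds, was not called, with 16880 to 18087 on the E16.5 arrays and 19607 to 21262 on the E18.5 arrays.

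S100a14, an S100 protein of stratified epithelia, gave 1119 and 1680.4 at E14.5, 6174, 7077 and 6923 at E16.5, and 6429, 6417 and 4265 at E18.5. Both later stages lay well above E14.5 and overlapped each other. The log2 change from E16.5 to E18.5 was -0.26 ± 0.19, with an interval of -0.68 to 0.16 (limma, adjusted p = 0.39).

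S100b, a marker of Schwann cells and other glia that melanocytes and fat cells also make, was dim. Its tested probeset (1434342_at) gave 50.3 and 75.5 at E14.5, 92.1, 101 and 67.7 at E16.5, and 87.4, 56.7 and 24.7 at E18.5, where no array lay above background. The second probeset (1419383_at) had signals of 18.9 and 28.0, then 58.5, 50.7 and 47.7, then 80.5, 113 and 147, and no overlap between stages. From E16.5 to E18.5 the probesets ran opposite ways, with changes of -0.60 ± 0.36 (adjusted p = 0.31) and 0.89 ± 0.29 (adjusted p = 0.080), and neither passed the test. The Schwann cell and glia list, with 9 to 11 of 11 markers above background, gave a sum of 19313 to 20486 at E14.5, then 10626 to 10842 and then 12146 to 13148. In the later interval 2 of its genes rose and 1 fell, while 7 of 9 melanocyte and 9 of 10 adipocyte markers rose. Of all genes, 7.28% rose and 5.58% fell. The part of these lists in the S100b signals was not tested.

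**Figure D3:**
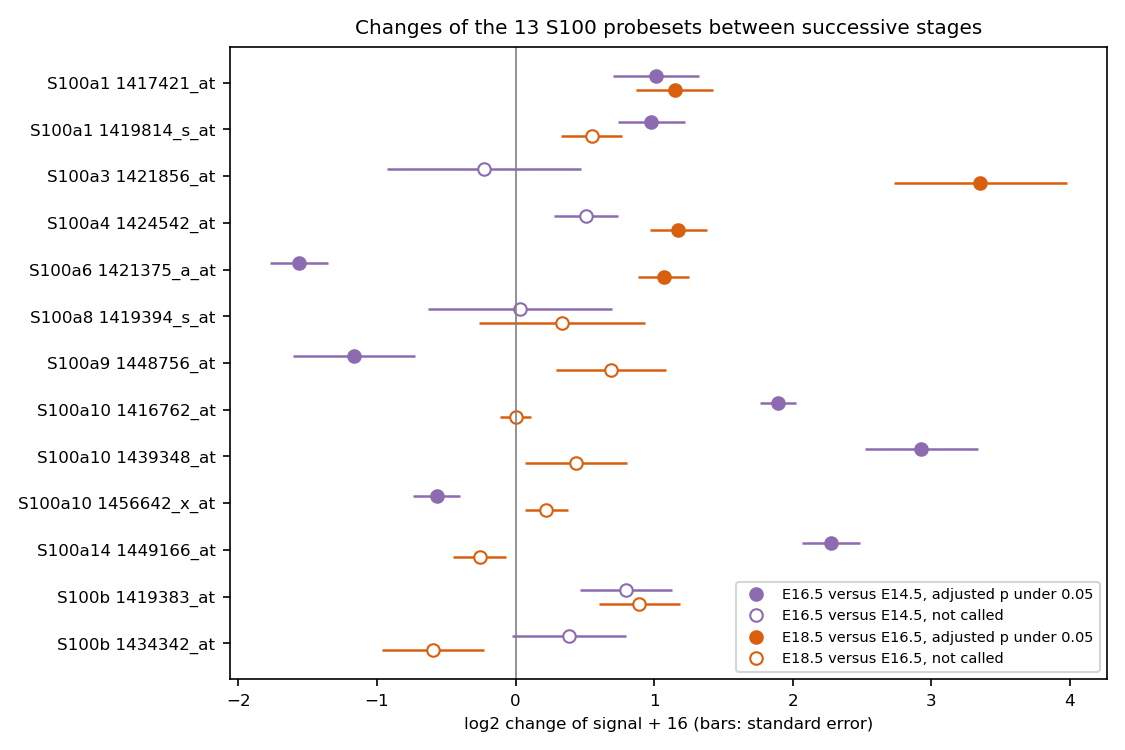
Log2 changes of signal + 16, with standard errors, of the 13 S100 probesets from E14.5 to E16.5 and from E16.5 to E18.5, each probeset tested on its own with limma over 34945 probesets. Filled points passed an adjusted p of 0.05, and the 3 S100a10 probesets lie on both sides of 0 in the earlier interval, at -0.57, 1.89 and 2.93.

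Between E14.5 and E16.5, on the tested probesets, S100a1 and S100a14 rose, S100a6, S100a9 and S100a10 fell, and the other 4 members were not called. The S100a10 probesets disagreed in direction, as given below. In this comparison 57.9% of all genes were called, 37.1% as higher and 20.8% as lower. The members' 5 of 9 is close to that background, and became 3 after quantile normalisation, without E14.5 replicate 1 and without E16.5 replicate 3. Their median log2 change was 0.03, beside 0.29 over all genes. That median over all genes became -0.07 when arrays were quantile normalised and -0.66 when each was centred on its median, so each change below is read against it. Higher genes were 64.1% of the calls as deposited, 49.2% after quantile normalisation and 28.5% after centring.

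S100a14 had the largest change of the 9 tested probesets in this interval, 2.28 ± 0.21 or 4.85-fold (limma, adjusted p = 5.8e-06). It was 2.43 after quantile normalisation and 1.33 after centring, and passed the test in all 20 alternatives. The suprabasal and granular keratinocyte list rose in 10 of 11 genes over the same interval, beside 37.1% of all genes, a share that moves with the scaling. Its sum went from 40072 to 57978 at E14.5 to 115192 to 135115 at E16.5. Flg and Klk7 were not above background at E14.5. The part of that list in the S100a14 change was not tested.

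S100a6 fell by 1.56 ± 0.21 on the log2 scale, a 2.96-fold difference (limma, adjusted p = 8.5e-05). It fell in all 20 alternatives, by 1.12 after quantile normalisation and by 2.52 after centring. The periderm list (Krt4, Krt8, Krt18, Krt19 and others) marks the transient outer layer of embryonic epidermis. It fell in 4 of 7 genes and rose in 2, beside 20.8% and 37.1% of all genes. Its sum went from 18198 to 24557 down to 3682 to 5141. In the later interval, when S100a6 rose, 4 of the 7 periderm genes fell and only 1 rose (median log2 change -0.90). Over all genes 5.58% fell and 7.28% rose. The periderm sum of 4963 to 8890 at E18.5 came mostly from Krt17, at 4364 to 7405, which hair follicles also express. The part of the list in the S100a6 changes was not tested.

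S100a9 fell by 1.17 ± 0.45 with no overlap between the stages (limma, adjusted p = 0.046). The call was lost in 8 of 19 alternatives, which include leaving out either E14.5 array or any 1 of the E16.5 arrays, and without single arrays the adjusted p ran from 0.0044 to 0.25. S100a8, its partner, changed by 0.03 ± 0.68 and its stages overlapped.

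S100a1 rose by 0.98 ± 0.24 on its tested probeset (limma, adjusted p = 0.0055) and by 1.01 ± 0.31 on the second. The tested value dropped to 0.08 after quantile normalisation and 0.03 after centring, so its size and its call depend on the scaling. S100a4 changed by 0.51 ± 0.23 (limma, adjusted p = 0.084), and turned to -0.13 and -0.45 under the same scalings. S100a3 was not above background at either stage.

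For S100a10 the probesets disagreed. The tested probeset fell by 0.57 ± 0.17 (limma, adjusted p = 0.015), while 1416762_at, at 2829 and 2493 at E14.5 and 9548, 9919.7 and 10278 at E16.5, rose by 1.89 ± 0.13, or 3.72-fold (adjusted p = 4.6e-07). The third, at 45.9 and 5.29 at E14.5 and 250.1, 270.3 and 262 at E16.5, rose by 2.93 ± 0.41, at least 4.48-fold (adjusted p = 9.9e-05). No direction for S100a10 between these stages is therefore given. In the fit of every probeset 57.6% were called, 38.9% as higher and 18.7% as lower, and 5 of the 13 S100 probesets rose and 3 fell.

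Between E14.5 and E18.5, on the tested probesets, 4 members rose and none fell. Of all genes 61.2% were called, 41.7% as higher and 19.5% as lower. This comparison shares its arrays with both others. After centring 7 were called, 3 as higher and 4 as lower (S100a6, S100a9, S100a10 and S100b). Without E18.5 replicate 1 the count was also 7, with 4 higher and 3 lower (S100a6, S100a9 and S100a10). That none fell thus depends on the scaling and on single arrays. S100a3 rose by 3.13 ± 0.71, at least 7.44-fold (limma, adjusted p = 0.0030), and S100a4 by 1.68 ± 0.23, or 3.21-fold (adjusted p = 1.0e-04). S100a14 rose by 2.02 ± 0.21, or 4.05-fold (adjusted p = 1.5e-05), and these 3 rises held in every alternative. S100a1 rose by 1.53 ± 0.24 (adjusted p = 3.0e-04), a call lost at 0.65 after quantile normalisation and 0.46 after centring. The median over the members was 0.37, beside 0.51 over all genes. The latter became -0.02 after quantile normalisation and -0.56 after centring, and the share of higher genes among the calls went from 68.2% to 50.2% and 28.3%.

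S100a6, which fell and then rose, changed by -0.50 ± 0.21 on the log2 scale from E14.5 to E18.5, with overlapping arrays (limma, adjusted p = 0.062). It passed as lower in 4 of 20 alternatives, at -1.56 after centring, -0.53 with array weights, -0.76 without E14.5 replicate 2 and -0.70 without E18.5 replicate 1. It was -0.021 after quantile normalisation and -0.23 without E14.5 replicate 1. In the fit of every probeset 59.8% were called, 42.9% as higher and 16.9% as lower, and 8 of the 13 S100 probesets rose and none fell. The second S100b probeset rose by 1.69 ± 0.33 (limma over probesets, adjusted p = 0.0011). It was at or under background on both E14.5 arrays and on 1 E18.5 array. The tested S100a10 probeset changed by -0.35 ± 0.17 (adjusted p = 0.10). In contrast, 1416762_at rose by 1.89 ± 0.13, or 3.72-fold (adjusted p = 5.3e-07). The third, 1439348_at, rose by 3.37 ± 0.41, at least 6.06-fold (adjusted p = 3.6e-05). No direction for S100a10 is given here either.

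Within a stage the members tended to rank the arrays alike. At E18.5 replicate 1 gave the highest signal of the stage for all 9 tested member probesets, beside 43.0% of all genes. Replicate 3 gave the lowest for 8 of 9, beside 34.3% of all genes. At E16.5 replicate 2 was highest for 8 of 9, beside 32.8%. The untested probesets did not all follow, since 1419383_at of S100b was highest on replicate 3 of E18.5 and 1439348_at of S100a10 on replicate 2. At E16.5 the highest signal of a stage was 1.03 times (S100a6) to 1.84 times (S100a3) the lowest over the 9 tested probesets. At E18.5 it was 1.51 times (S100a14) to 9.75 times (S100a3), with 7.75 times for S100a8 and 3.78 times for S100a9.

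S100a1 through S100a9 are 12 consecutive protein-coding genes on chromosome 3 (GRCm38.p6 order), of which 10 were measured. S100a10 and S100a11 lie next to each other at the far end of the complex, with 56 genes between S100a9 and S100a11. S100b is on chromosome 10. In the block of 12, 3 measured genes rose and none fell between E16.5 and E18.5, beside 7.28% and 5.58% of all genes. These are the member calls given above, of S100a3, S100a4 and S100a6. S100a5, which lies between S100a4 and S100a6, was not called, its signals being 20.4 to 40.2 on the E16.5 arrays and 55.4 to 83.4 on the E18.5 arrays, none above background. Between E14.5 and E16.5, 5 of the 10 rose and 2 fell, beside 37.1% and 20.8% of all genes. The 5 called as higher were S100a1, S100a5, S100a13, S100a14 and S100a16, of which S100a5 lay at or under background on every array of both stages.

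**Figure D4:**
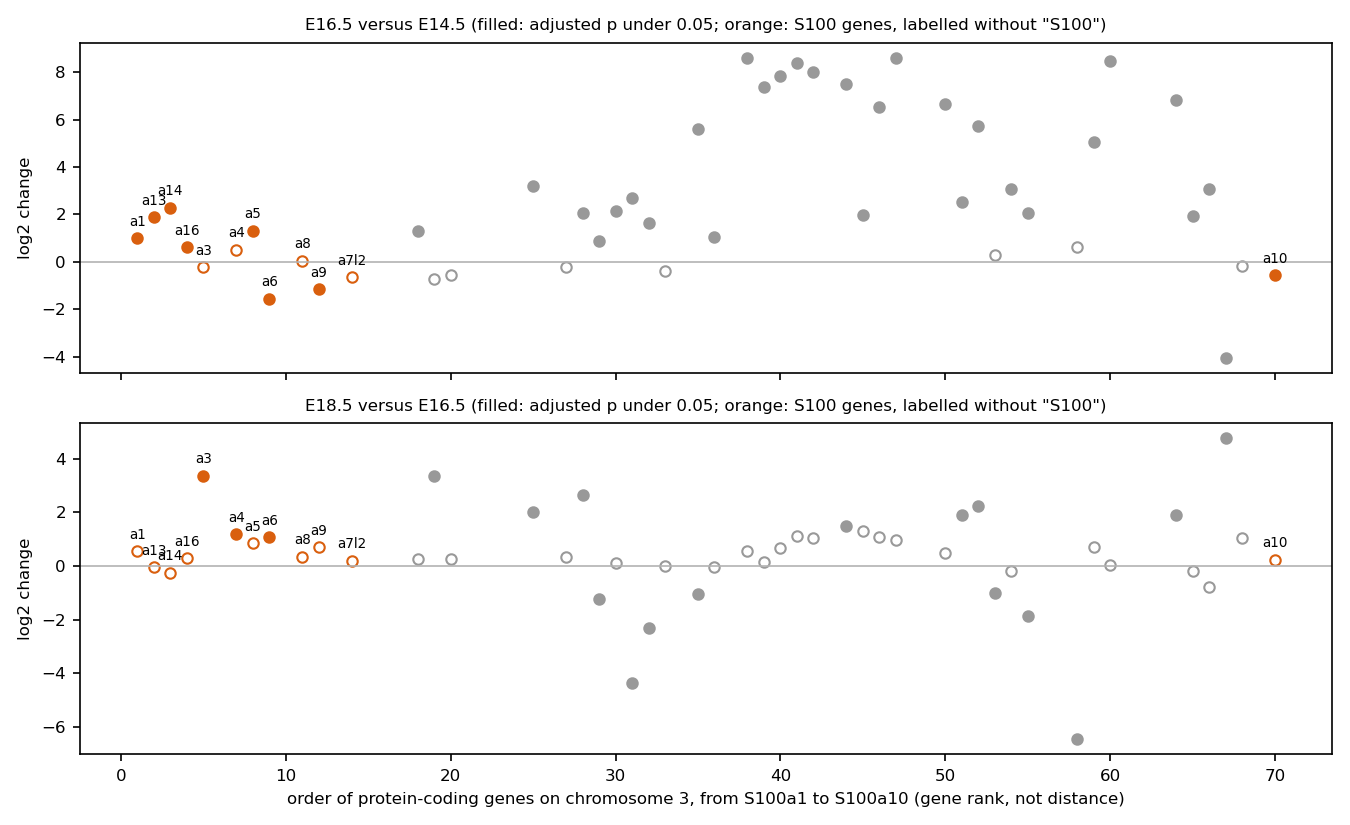
Log2 change of each measured gene from S100a1 to S100a10 against its rank among the 70 genes in that stretch of chromosome 3, of which 48 were measured, for the 2 intervals. S100 genes are orange, filled points passed an adjusted p of 0.05, and S100a3 at 3.36, S100a4 at 1.17 and S100a6 at 1.07 are the filled S100 genes from E16.5 to E18.5.

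Related genes were examined as lists. Their counts from E16.5 to E18.5 stand beside the 7.28% of all genes called as higher and the 5.58% called as lower. From E16.5 to E18.5, none of S100a5, S100a13, S100a16 and S100g, the 4 measured genes on the list of other S100 genes, was called (limma, adjusted p under 0.05), and their median log2 change was 0.46. S100a7l2, which was not on that list, changed by 0.18 (adjusted p = 0.77). Between E14.5 and E16.5, 3 of the 4 were called as higher and 1 as lower, beside 37.1% and 20.8% of all genes. S100a5, among those called as higher, lay at or under background on every array of both stages. The gene that fell was S100g, which encodes the vitamin D-dependent calbindin. It had a signal of 1073 on E14.5 replicate 1, 10.5 on replicate 2 and at most 22.4 on any later array. Only the first of these was above background.

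Of 5 S100-fused type genes, whose proteins carry an S100 domain before a long repeat region, 2 rose from E16.5 to E18.5 and none fell. Tchh, which encodes trichohyalin of the inner root sheath, had 38.9, 54.1 and 51.7 at E16.5 and 3853, 1729 and 749 at E18.5, at least 26.6-fold higher (log2 change 4.76 ± 0.46, limma, adjusted p = 5.1e-04). Like S100a3 it was highest on replicate 1 and lowest on replicate 3 of E18.5, but replicate 1 was highest for all 9 tested member probesets. Tchh lies 2 genes before S100a11. At E14.5 Tchh gave 1129 and 1000.1, where S100a3 was at background. Flg, which encodes profilaggrin, rose 3.77-fold, from 2101, 7961 and 4323 to 17103, 16823 and 13601 (adjusted p = 0.017). Leaving out E16.5 replicate 3 ended the Flg call, as did leaving out replicate 1 or 2 of the last stage.

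Among the annexins and other proteins that bind S100 members, 2 of 17 measured genes rose from E16.5 to E18.5 and none fell. They were Plat, the tissue plasminogen activator that binds the S100a10 complex, at 1.80-fold (adjusted p = 0.035), and Anxa4, at 1.39-fold (adjusted p = 0.019). The median of the list was 0.16, near the 0.12 of all genes. From E14.5 to E16.5, 11 of the 17 were called as higher and 3 as lower, beside 37.1% and 20.8% of all genes, shares that move with the scaling as given above.

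Of 9 genes for receptors of S100a8 and S100a9 and their adaptors, 2 rose and 2 fell from E16.5 to E18.5. Cd36, a fatty acid transporter, had 1549, 1455 and 1409.6 at E16.5 and 2126, 4107 and 3478 at E18.5, a rise of 2.11-fold (adjusted p = 0.011), and Bsg rose 1.29-fold (adjusted p = 0.035). Emb, which encodes embigin, fell by 1.45 ± 0.26 on the log2 scale (adjusted p = 0.0071), from 1222, 877 and 1073 to 249, 396 and 527, and Myd88 fell by 0.55 (adjusted p = 0.025). Ager, Tlr4 and Cd14 were not called. Ager, the receptor for advanced glycation end products, ranged from 76.9 to 118 on the E16.5 arrays and from 110.0 to 365 on the E18.5 arrays.

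Transglutaminases cross-link S100 and other proteins into the cornified envelope. Of 7 measured, Tgm5 (2.48-fold, adjusted p = 0.0069) and Tgm6 (adjusted p = 0.0042) rose from E16.5 to E18.5, the latter from at most 12.4 to 57.6 to 77.4, with 1 of 3 arrays above background. Tgm1, the main keratinocyte enzyme, fell by 1.02 ± 0.20 (adjusted p = 0.011), from 2773, 3087 and 3254 to 1459.6, 1995 and 1131, and Tgm3 fell by 0.94 ± 0.17 (adjusted p = 0.0074). Of 9 genes of calcium handling, Pvalb rose from at most 43.9 to 133 to 196, Calb1 was called as higher at signals under background on all 6 arrays, and Calml3 fell by 0.72 ± 0.19 (adjusted p = 0.032). Of the calls in these related lists, those of Tchh, Emb, Tgm5 and Tgm6 were kept in every alternative in which they were tested, and each of the others was lost in at least 1.

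The genes whose log2 signals most resembled each member over the 8 arrays, out of 11233 that varied, are given as a description, and the arrays share their stage and preparation. For S100a3 they were Ddx39a (Pearson r = 0.990) and the hair keratin-associated gene Krtap8-1 (0.986), which had 14.8 to 39.2 at E16.5 and 509, 175 and 54.7 at E18.5. Krtap8-1 was above background only on E18.5 replicates 1 and 2, and S100a3 only on the E18.5 arrays. For S100a4 they were the deiminase gene Padi3 (0.989) and the signalling ligand gene Shh (0.984), and over the 6 later arrays alone these gave 0.994 and 0.989. For S100a6 they were Anapc15 (0.989) and the claudin gene Cldn8 (0.980). For S100a14 they were Ppil1 (0.997) and the keratinocyte gene Trim29 (0.997), and for S100a1 Slc15a4 (0.994) and Sox21 (0.992). For S100a9 they were the lysozyme gene Lyz1 (0.949) and Nacc2 (0.945), and for S100a10 Hilpda (0.980) and Irf4 (0.962). The S100a10 values rest on its tested probeset alone, whose direction between E14.5 and E16.5 its other probesets did not share. Irf4 was under background on E16.5 replicates 2 and 3 and on E18.5 replicate 3. The closest genes to S100a8 reached only 0.874 (Dio3os) and 0.868 (Igsf23), and those to S100b 0.923 (Dntt) and 0.890 (Tekt5), with most of their arrays dim.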

How the data were processed

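The deposited values were one table of signal intensities on a linear scale, for 45101 probesets and 8 arrays. Per the submitters' processing notes, the authors used Affymetrix Expression Console 1.1 and PLIER 2.0. Neither the background correction nor the normalization was found in the labels. Per the labels' protocols, RNA was extracted with Trizol and amplified from random hexamers. No normalization was added. Probesets were named from the platform annotation: 34958 had 1 symbol, 932 several and 9211 none, and 64 were array controls, which together with those of several or no symbols were left out.

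Stages were compared with limma 3.58.1 in R 4.3.3, as 1 mean a stage over all 8 arrays, with a variance trend and Benjamini-Hochberg adjustment over 18193 genes. Every probeset was also tested over 34945, and the text says where that fit is used. The script was tested on simulated data. The members, gene lists and the rule for named genes (members, called genes of each list with the largest changes, and the 2 closest genes by Pearson r) were chosen with earlier results of these data known. Alternatives were other pseudocounts, scalings, filters, variance models, probeset rules and leaving out arrays. Read depth does not apply, and precision is limited by 2 or 3 arrays a stage.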

Additional observations from a re-analysis of the deposited data

Results flagged for a closer look

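The single S100a11 probeset is shared with Gm12854 and S100a11-ps and so entered no comparison, although S100a11 encodes a keratinocyte protein that transglutaminases cross-link. Its signal was far above background on every array, with a lowest value of 9573. The signals were 9573 and 10034 at E14.5, 16042, 17131 and 16765 at E16.5, and 18719, 14539 and 16492 at E18.5. The stage means were 9803 ± 326 (SD, n = 2), 16646 ± 554 (SD, n = 3) and 16583 ± 2092 (SD, n = 3). The E14.5 arrays lay below all others, and the E16.5 and E18.5 arrays overlapped. The median signal of all probesets was also lower at E14.5, at 60.8 to 63.4, than on the later arrays, at 120.1 to 152.6. No other scaling was tried for this probeset. Which of the 3 symbols gave the signal was not tested.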

How the results depend on the processing

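No paired analysis was possible because replicates were numbered by accession and no label pairs arrays across stages. The rises of S100a3, S100a4 and S100a6 from E16.5 to E18.5 kept their direction and passed the limma test in every alternative in which they were tested. The number of members called from E16.5 to E18.5 was 3 to 5 on leaving out single arrays, with 5 without E18.5 replicate 3. From E14.5 to E16.5 it was 3 to 6 on leaving out single arrays and 3 after quantile normalisation. From E14.5 to E18.5 it was 4 to 7 on leaving out single arrays and 7 after centring. In both cases of 7 the added calls were falls on the tested probesets. Over all genes, leaving out single arrays gave 758 to 2624 calls from E16.5 to E18.5, where 2340 were made with all arrays, the counts being 987, 1005 and 758 without E16.5 replicates 1, 2 and 3. Testing only genes above the median gene gave 7351 calls from E14.5 to E18.5, beside 11129.

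Several members that were not called changed direction. From E16.5 to E18.5, averaging the S100b probesets, by mean or by median, gave 0.15, and S100a8 became -0.41 without E18.5 replicate 1 (range over single arrays left out -0.41 to 1.00). From E14.5 to E16.5, quantile normalisation gave -0.13 for S100a4, -0.72 for S100a8 and -0.43 for S100b, and centring gave -0.45, -0.92 and -0.56. S100a10, which was called as lower, became 1.42 with the mean and 1.24 with the median of its probesets. S100a3 became 0.015 without E14.5 replicate 2 (range -0.47 to 0.015), and S100a8 became -0.71 without E14.5 replicate 2 and -0.047 without E16.5 replicate 2 (range -0.71 to 0.77). From E14.5 to E18.5, S100a8 became -0.39 after quantile normalisation, -0.70 after centring, -0.37 without E14.5 replicate 2 and -0.38 without E18.5 replicate 1 (range -0.38 to 1.11). S100a10 became 0.10 after quantile normalisation, 1.64 with the mean and 1.46 with the median of its probesets. S100b became 0.74 when its probesets were averaged either way, 0.023 without E14.5 replicate 2 and 0.15 without E18.5 replicate 3 (range -0.52 to 0.15). The S100a10 and S100b changes under other probeset rules follow from which probesets enter the value, and for the others the cause was not tested. Signals at background limit S100a3 before E18.5 and the tested S100b probeset at E18.5.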
